A study of Mus musculus with 4 samples.

Results

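The respiratory chain genes described here were taken by symbol. They are the genes whose names start with mt-Nd, mt-Co, mt-Atp, mt-Cytb, Ndufa, Ndufb, Ndufc, Ndufs, Ndufv, Uqcr, Cox4 to Cox8 or Atp5, without pseudogenes, and they numbered 102 of 32285 genes. Of these, 13 are encoded by the mitochondrial genome and 89 by nuclear chromosomes. The rule also took in 8 assembly factors of complex I (Ndufaf1 to Ndufaf8), which help to build the complex and are not part of it. The rule reads names only. UMIs (unique molecular identifiers, 1 per captured RNA molecule) were found for every member, and 99 members had enough of them to be tested. The other 3, Cox6a2, Cox8b and Ndufa4l2, had 19, 2 and 31 UMIs in all.

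The respiratory chain passes electrons from NADH and succinate to oxygen across the inner mitochondrial membrane, and ATP synthase uses the proton gradient that results. Complex I oxidises NADH, complex III (the cytochrome bc1 complex) reduces cytochrome c, complex IV (cytochrome c oxidase) reduces oxygen and complex V is the ATP synthase. Each of these 4 complexes is assembled from subunits of both genomes. The core membrane subunits are translated inside the mitochondrion, whereas all other subunits are imported from the cytosol. Several nuclear subunits exist as isoforms, and the testis is known to use isoforms of cytochrome c oxidase and of cytochrome c that other tissues hardly express.

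The samples were primary spermatogonial cultures of mice. Thy1-positive cells were isolated with magnetic beads from testes of 3 male pups at postnatal day (PND) 6. Their feeder layer was the STO line, which derives from embryonic fibroblasts of the mouse. Cultures were exposed for 3 days to PBS (vehicle 1 and vehicle 2) or to extracellular vesicles (EVs) from PND7 mouse testis at 1 µg/ml (EV 1 and EV 2). Both arms shared the donor pups' stage, the feeder line and the medium. Expression in EV 2 was not analysed here, so the EV arm rests on 1 library and was not tested. The labels call the libraries of an arm biological replicates, and the study describes them as independent experiments.

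Within each library, a cell was called germ when its Dazl, Tex15, Stk31 and Epcam UMIs summed to at least 2 and exceeded those of Col1a1, Col1a2, Sparc and Dcn, and feeder in the reverse case. This gave 4411, 4783 and 227 germ cells and 2357, 2473 and 2508 feeder cells, in the order vehicle 1, vehicle 2 and EV 1, which holds wherever 3 values are given. EV 1 stood apart with few germ cells and a low depth, since its germ cells held 325012 UMIs in all against 9445041 and 11013433 in the vehicle libraries. Median UMIs per cell were 1936, 2091 and 1322 in germ cells and 3635, 3896 and 2448 in feeder cells. Libraries shared at most 22 barcodes. The classes were checked on markers outside the rule. Germ markers (Ddx4, Dnd1, Sall4, Mael, Tdrd5 and Taf4b) summed to 511 to 527 CPM (counts per 1000000 UMIs) in germ cells, and feeder cells held 3.12%, 2.54% and 0.66% of the germ level in vehicle 1, vehicle 2 and EV 1. Fibroblast markers (Col3a1, Pdgfra, Lum, Postn, Fn1 and Loxl1) summed to 1491 to 1679 CPM in feeder cells, and germ cells held 9.62%, 8.43% and 18.6% of that level. Lum and Postn were near 0 in both classes. Of the Sertoli markers (Sox9, Amh, Wt1 and Cldn11), Sox9 stood at 275 to 298 CPM in feeder cells and Amh at most at 0.186 CPM. Leydig, macrophage, endothelial and red cell markers each summed to at most 24.6 CPM in every library and class. These percentages give the level that markers of the other class reached.

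Taken as sums, the mitochondrial-encoded and the nuclear members differed in how they compared between the classes. In germ cells the 13 mitochondrial-encoded mRNAs took 3.67%, 3.39% and 3.30% of all UMIs. Feeder cells gave 2.12%, 1.84% and 1.97%, so every germ value lay above every feeder value. The log2 ratio of the shares, germ over feeder, was 0.80 ± 0.07 (SD, n = 3 libraries), or 1.75-fold. Nuclear members did not follow. They took 2.85%, 2.65% and 2.56% of UMIs in germ cells and 2.93%, 2.74% and 2.58% in feeder cells, a log2 ratio of −0.03 ± 0.02 that became 0.04 when each cell was thinned to 1000 UMIs. The mitochondrial-encoded ratio was then 0.68. The vehicle libraries alone gave 0.83 for the mitochondrial-encoded mRNAs and −0.04 for the nuclear members.

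Mitochondrial-encoded UMIs per nuclear member UMI need no scaling between classes. This ratio was 1.29, 1.28 and 1.29 in germ cells and 0.726, 0.673 and 0.765 in feeder cells. The class difference was also present among cells of like depth. Between 1500 and 3000 UMIs per cell, the median mitochondrial-encoded share of a cell was 3.55%, 3.31% and 3.19% in germ cells and 2.03%, 1.78% and 1.88% in feeder cells. Below 1500 UMIs the medians were closer, at 3.93%, 3.56% and 3.20% against 3.30%, 2.58% and 2.33%. Cells with 10% or more of mitochondrial UMIs had been left out. They were 1.5%, 1.86% and 0.41% of germ cells and 2.81%, 1.62% and 1.38% of feeder cells, and with them the log2 ratio was 0.76. Malat1, a nuclear RNA, took 1.52%, 1.67% and 2.50% of germ UMIs and 2.94%, 3.36% and 4.51% of feeder UMIs. Its part in the result was not tested.

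**Figure D1:**
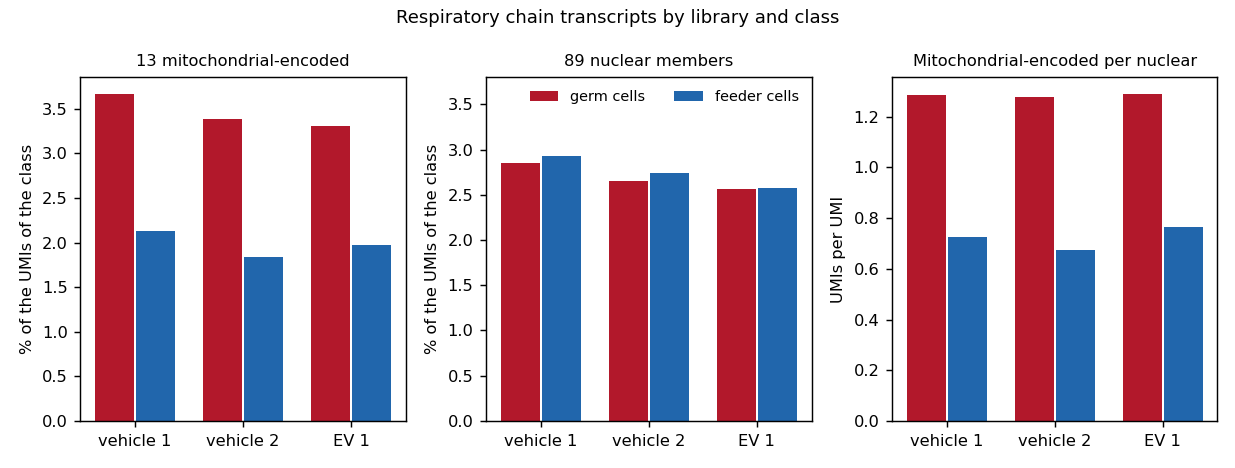
Share of UMIs (%) of the 13 mitochondrial-encoded and the 89 nuclear respiratory chain genes, and UMIs of the former per UMI of the latter, by library (x axis) for germ cells (red bars) and feeder cells (blue bars). Germ bars stand near 1.28 to 1.29 in the right panel and feeder bars at 0.673 to 0.765, while the nuclear shares of both classes lie between 2.56% and 2.93%.

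To compare single members, UMIs were summed per library and class and tested over all genes with the edgeR quasi-likelihood test, with library as a term and TMM factors. At an adjusted p under 0.05, 23 of the 99 tested members (23.2%) were higher in germ cells, against 40.1% of all 15637 genes tested. A further 51 members (51.5%) were lower, against 41.7%. The median log2 difference was −0.35 over the members and −0.03 over all genes. The counts depended on the scaling. With plain CPM scaling, which raises all genes by a median of 0.37 on the log2 scale, 47 members were higher and 35 lower, so that 57.3% of called members were higher instead of 31.1% (60.2% instead of 49.0% over all genes). Of all 15637 genes, 7937 were higher and 5241 lower under CPM scaling. Under TMM, CPM and DESeq2 scaling alike, 21 members (21.2%) were higher, with 31.6% over all genes, and 35 (35.4%) were lower, with 32.4%. With a log2 difference of at least 1 under TMM, 10 members (10.1%) were higher and 14 (14.1%) lower, against 26.6% and 28% of all genes. Without EV 1 the member counts were 31 higher and 57 lower, without vehicle 1 they were 12 and 36, and without vehicle 2 they were 12 and 37. Over all genes they were 7067 higher and 7092 lower of 16441 without EV 1. Without vehicle 1 the all-gene counts were 4447 and 5068 of 15715, and without vehicle 2 they were 4355 and 4984 of 15532.

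**Figure D2:**
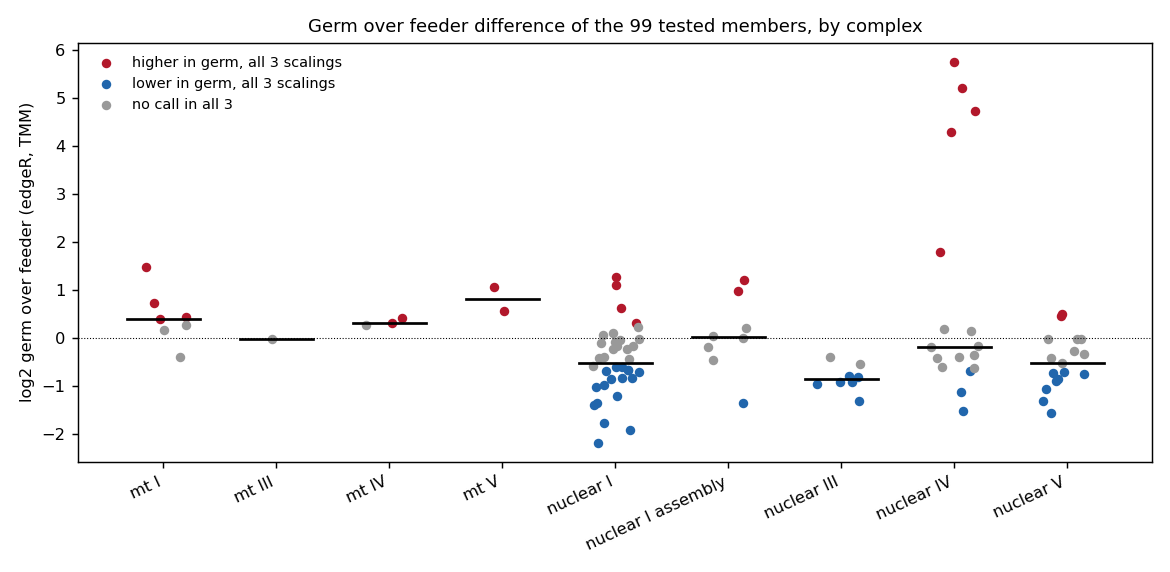
log2 germ over feeder difference (y axis, edgeR with TMM factors) of the 99 tested members by genome and complex (x axis), with the median of each group as a bar. Red points were higher and blue points lower in germ cells under 3 scalings, and 4 nuclear subunits of complex IV lie above 4 on this axis while the medians of the other nuclear groups lie between −0.86 and 0.03.

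The mitochondrial-encoded mRNAs did not differ to the same extent. Under TMM scaling 9 of 13 were higher in germ cells, 1 was lower and 3 (mt-Nd1, mt-Nd4 and mt-Cytb) passed in neither direction. Under all 3 scalings 8 were higher. Many of these calls are small. Of all genes tested, 40.1% were higher and 41.7% lower under TMM scaling, and 31.6% and 32.4% under all 3. When either vehicle library was left out, mt-Nd2, mt-Nd5, mt-Co1, mt-Co2, mt-Co3, mt-Atp6 and mt-Nd6 no longer passed, and mt-Nd3, mt-Nd4l and mt-Atp8 did.

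mt-Nd3, which encodes a core membrane subunit of complex I (chrM:9459-9806, plus strand, GRCm38), showed the largest difference. Its level was 493, 481 and 418 CPM in germ cells and 136, 129 and 99.6 CPM in feeder cells, and the groups did not overlap. The log2 difference was 1.47 ± 0.15 (SE, edgeR adjusted p = 9.99e-10). mt-Atp8, a subunit of the ATP synthase, came next with 97.3, 86.3 and 76.9 CPM against 38.2, 27.5 and 38.0 CPM (log2 difference 1.06 ± 0.11, edgeR adjusted p = 1.33e-09). mt-Nd4l followed with 0.72 and mt-Atp6 with 0.57 on the same scale. The coding regions of mt-Atp8 and mt-Atp6, and of mt-Nd4l and mt-Nd4, overlap on the same strand and lie on shared mRNAs, so the split of UMIs within each pair is uncertain. Nuclear copies of mitochondrial sequence could also share reads with any of the 13.

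mt-Nd6 went the other way. It is the only protein-coding gene read from the light strand (chrM:13552-14070, minus strand) and encodes another complex I subunit. Germ cells held 97.2, 100 and 194 CPM and feeder cells 106, 103 and 132 CPM, so the classes overlapped. The log2 difference was −0.39 ± 0.13 under TMM scaling (edgeR adjusted p = 0.0077) and −0.04 under CPM scaling, where it did not pass. As a share of mitochondrial-encoded UMIs, which no scaling touches, mt-Nd6 took 0.265%, 0.296% and 0.587% in germ cells and 0.501%, 0.560% and 0.672% in feeder cells. mt-Cytb, the only subunit of complex III from this genome, took 9.49%, 9.34% and 9.34% of these UMIs in germ cells and 12.4%, 12.2% and 11.1% in feeder cells. mt-Nd3 took 1.34%, 1.42% and 1.27% in germ cells and 0.640%, 0.699% and 0.506% in feeder cells. Whether strand was used in the counting is not given in the sources used here, so RNA of the strand opposite to mt-Nd6 cannot be told apart from it.

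Complex I held the widest range among the nuclear subunits outside the isoforms. Of its 36 nuclear members, 5 were higher and 21 lower in germ cells under TMM scaling, and 4 were higher and 17 lower under all 3 scalings. The shares over all genes were 40.1% and 41.7% under TMM scaling, and 31.6% and 32.4% under all 3. Ndufv3, a small accessory subunit of the NADH-oxidising arm (chr17:31520115-31531331), was lowest. Its level was 221, 197 and 329 CPM in germ cells and 720, 665 and 1070 CPM in feeder cells, with no overlap (log2 difference −2.18 ± 0.15 SE, edgeR adjusted p = 9.96e-13). Ndufa1 and Ndufb11, accessory subunits of the membrane arm, followed at −1.91 and −1.77. Ndufa1 stood at 139, 125 and 142 CPM in germ cells and 385, 345 and 397 CPM in feeder cells.

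At the other end of complex I were 3 subunits encoded on chromosome 19. Ndufs8 carries iron-sulphur clusters and Ndufv1 binds NADH and flavin, and both belong to the catalytic core. Ndufs8 (chr19:3908863-3912774) measured 266, 253 and 172 CPM in germ cells and 84.3, 74.4 and 54.5 CPM in feeder cells (log2 difference 1.27 ± 0.14 SE, edgeR adjusted p = 1.08e-08). Ndufv1 (chr19:4007384-4012806) measured 269, 244 and 188 CPM against 95.8, 83.7 and 61.8 CPM, a log2 difference of 1.10. Neither gene's classes overlapped. Ndufb8, an accessory subunit, was higher by 0.62, a call that was lost without either vehicle library. The differences of Ndufs8 and Ndufv1 held under CPM scaling (1.71 and 1.52).

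Complex I assembly factors gave 2 higher and 2 lower of 8 under TMM scaling, 5 and 1 under CPM scaling and 2 and 1 under all 3 scalings. All genes gave 40.1% higher and 41.7% lower under TMM scaling. Ndufaf1, which acts in building the membrane arm, was at 29.3, 31.5 and 27.7 CPM in germ cells and 9.62, 10.6 and 8.70 CPM in feeder cells (log2 difference 1.21 ± 0.13 SE, edgeR adjusted p = 2.66e-09). Ndufaf2 was at 172, 164 and 218 CPM against 68.4, 66.8 and 61.5 CPM (log2 difference 0.99). Ndufaf3 stood at 13.1, 11.9 and 15.4 CPM against 24.6, 25.7 and 15.9 CPM (log2 difference −1.35). Ndufaf6 was lower at −0.45 by edgeR with TMM factors and did not pass with DESeq2 or under CPM scaling. Ndufaf7 and Ndufaf8 did not pass, with log2 differences of −0.19 and 0.21.

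Complex III was the most uniform. All 8 nuclear members were lower in germ cells under TMM scaling, 6 of them under all 3 scalings, and none was higher under any of the 3. Their median log2 difference was −0.86 under TMM and −0.43 under CPM scaling. Over all genes, 41.7% were lower under TMM scaling and 32.4% under all 3. Uqcr10, a small subunit, was lowest, with 275, 224 and 255 CPM in germ cells and 502, 444 and 403 CPM in feeder cells (log2 difference −1.31 ± 0.15 SE, edgeR adjusted p = 1.05e-08). The core protein Uqcrc2 (−0.97), the hinge protein Uqcrh (−0.93) and the Rieske iron-sulphur protein Uqcrfs1 (−0.79) were lower under all 3 scalings. Uqcr11 (−0.54) and the core protein Uqcrc1 (−0.39) were close to 0 under CPM scaling, at −0.07 and −0.03, and their TMM calls were lost without either vehicle library.

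Complex V split as well, with 2 higher, 11 lower and 4 passing in neither direction among 17 nuclear members under TMM scaling. Under CPM scaling 6 were higher and 8 lower, and under all 3 scalings 2 and 8. All genes gave 40.1% higher and 41.7% lower under TMM scaling, and 31.6% and 32.4% under all 3. Atp5h, a subunit of the peripheral stalk (chr11:115415689-115419962), was lowest at 278, 249 and 215 CPM in germ cells against 612, 555 and 439 CPM in feeder cells (log2 difference −1.56 ± 0.15 SE, edgeR adjusted p = 5.44e-10). Atp5j2, a membrane subunit, followed at −1.31 and Atp5d, in the central stalk, at −1.06. Atp5o, which ties the stalk to the catalytic head, was higher by 0.50 with 294, 285 and 231 CPM against 153, 154 and 111 CPM. Its call and that of Atp5g1 did not pass without either vehicle library.

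Subunit c, which forms the rotating ring of the ATP synthase, comes from 3 genes whose mature proteins are the same. Atp5g1 gave 53.6%, 54.0% and 52.6% of their UMIs in germ cells (Wilson intervals 52.8 to 54.4, 53.2 to 54.8 and 47.8 to 57.3) and 38.0%, 36.9% and 34.4% in feeder cells (37.1 to 38.8, 36.1 to 37.8 and 33.2 to 35.6). Atp5g2 was the leading gene in feeder cells with 42.2%, 42.9% and 45.5%, and gave 25.7%, 25.5% and 25.1% in germ cells. The share of Atp5g3 lay between 19.8% and 22.3% in both classes. All intervals given here are 95% intervals and cover counting error only.

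Complex IV contained the members that separated the classes most. Most of its nuclear subunits have a form that nearly all tissues use, and 5 of these families also have a second form that was found in germ cells here. Cox7b2, Cox6b2 and Cox8c are isoforms known from the testis, Cox7a1 is known from muscle and Cox4i2 from lung. All 5 were higher in germ cells under all 3 scalings and in every fit without 1 library. Cox7b2 (chr5:71442824-71548205) was the most abundant of them, with 178, 171 and 151 CPM in germ cells and 6.17, 4.83 and 2.21 CPM in feeder cells (log2 difference 4.73 ± 0.14 SE, edgeR adjusted p = 9.84e-20). It made up 48.7%, 50.0% and 47.6% of the UMIs of Cox7b and Cox7b2 in germ cells (Wilson intervals 47.0 to 50.4, 48.4 to 51.6 and 38.2 to 57.1) and 1.53%, 1.39% and 0.56% in feeder cells. UMIs count molecules and are not divided by length. Whether intronic reads were counted is not given in the sources used here, and Cox7b2 spans a much longer locus than Cox7b. The part of such reads in the share was not tested.

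Cox8c (chr12:102899316-102900526) measured 37.4, 38.6 and 46.2 CPM in germ cells and 1.05, 0.837 and 0.147 CPM in feeder cells (log2 difference 5.22 ± 0.23 SE, edgeR adjusted p = 6.51e-17). The last feeder value was 1 UMI. Its ratio of germ to feeder CPM was 35.7 in vehicle 1 (interval 19.2 to 75.2) and 46.1 in vehicle 2 (24.1 to 102). Cox6b2 (chr7:4751792-4753094) measured 14.7, 16.4 and 52.3 CPM against 2, 3 and 3 UMIs in feeder cells, a ratio of 70.4 (19.1 to 587), 58.9 (19.8 to 288) and 118 (34.2 to 630). Cox7a1 (chr7:30184144-30186078) measured 26.7, 23.7 and 30.8 CPM against 1.15, 0.93 and 0.737 CPM (log2 difference 4.29 ± 0.22 SE, edgeR adjusted p = 1.64e-15). No germ value of these genes overlapped a feeder value.

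Feeder values of these isoforms were then set beside the background from germ cell RNA. Cox7b2 in feeder cells stood at 3.46%, 2.83% and 1.47% of its germ level, Cox8c at 2.80%, 2.17% and 0.32%, Cox6b2 at 1.42%, 1.70% and 0.845% and Cox7a1 at 4.31%, 3.92% and 2.40%. For the 6 germ markers outside the class rule the same percentage ran from 2.14% to 4.24% in vehicle 1, from 1.45% to 4.60% in vehicle 2 and from 0.168% to 1.60% in EV 1. Apart from Cox7a1 in vehicle 1 (11 UMIs) and EV 1 (5 UMIs), the feeder values did not exceed this background. Cox4i2 (chr2:152754173-152765037) differed, with 23.1%, 29.5% and 9.05%. It was rare in both classes, at 4.98, 5.36 and 27.7 CPM in germ cells and 1.15, 1.58 and 2.51 CPM in feeder cells (log2 difference 1.79 ± 0.31 SE, edgeR adjusted p = 1.08e-05, and 1.5 without EV 1).

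**Figure D3:**
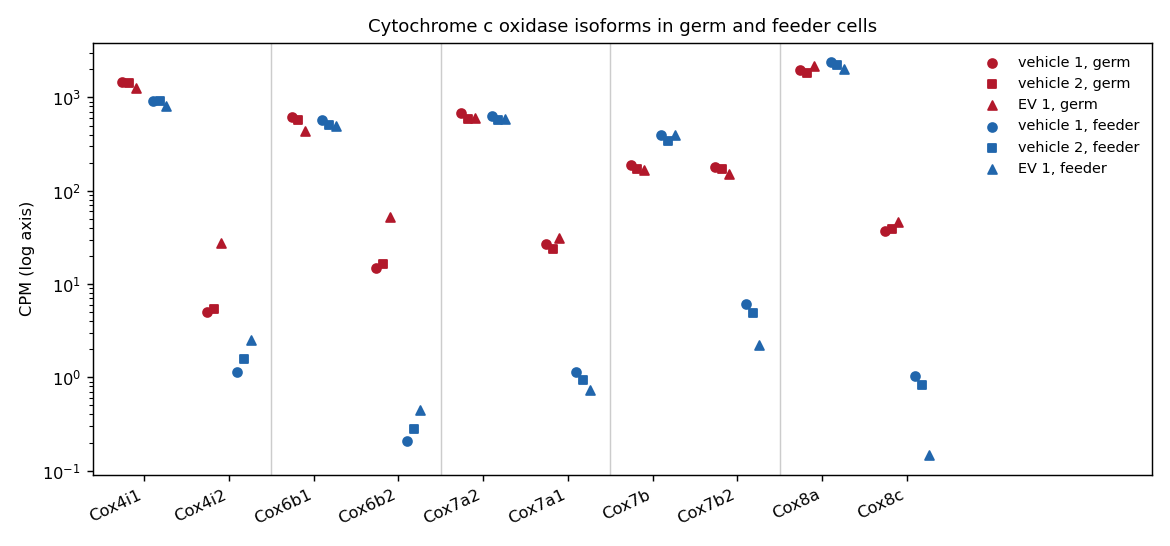
CPM (log axis) of 5 pairs of cytochrome c oxidase isoforms (x axis) in germ cells (red) and feeder cells (blue), with 1 point per library and no error bars. Cox7b lies at 166 to 188 CPM in germ cells and 342 to 396 CPM in feeder cells, whereas Cox7b2 lies at 151 to 178 CPM in germ cells and 2.21 to 6.17 CPM in feeder cells.

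The common forms depended on the scaling, and under TMM none of them was higher in germ cells. Cox7b, on chromosome X, measured 188, 171 and 166 CPM in germ cells and 396, 342 and 393 CPM in feeder cells (log2 difference −1.53 ± 0.16 SE, edgeR adjusted p = 1.95e-09). Cox6b1 and Cox7a2 were lower under TMM scaling (−0.41 and −0.40), and under CPM scaling both changed sign (0.07 and 0.07) and did not pass. Cox8a was lower by 0.63 under TMM and at −0.16 under CPM scaling, where it did not pass. Cox4i1 (0.19), Cox6a1 (−0.17), Cox7c (0.14) and Cox7a2l (−0.19), a protein that links complexes III and IV, did not pass under TMM scaling, but all 4 were higher under CPM scaling (0.66, 0.31, 0.61 and 0.21). Cox5a was lower by 1.14 and Cox5b by 0.69 under TMM, and both were lower under all 3 scalings. Ndufa4, a subunit of complex IV despite its name, was lower by 0.61 under TMM and did not pass under CPM scaling. Its family partner Ndufa4l2 had 3, 6 and 0 UMIs in germ cells. Cox8b, a muscle isoform, had 0, 1 and 0 UMIs there, and 0 of 325012 UMIs allows up to 9.23 CPM (3 counts).

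The Cox7b pair is printed here because its members share a subunit position in complex IV and split by class. Upstream sequences were taken from RefSeq (GRCm38.p6), where 72 of the 89 nuclear members matched by symbol. The 250 bases before the start site of Cox7b lie at chrX:106015450-106015699 (plus strand) and those of Cox7b2 at chr5:71548206-71548455 (minus strand). Neither stretch overlaps an annotated exon. As a contrast, 100 bases from the promoter of Cox6a1, chr5:115349059-115349158 (minus strand), are given from 200 to 101 bases before its start, where an exon of the gene Gm42903 reaches in. Letters in capitals are matches to the NRF1 motif searched here (GCGCANGCG, both strands).
Cox7b: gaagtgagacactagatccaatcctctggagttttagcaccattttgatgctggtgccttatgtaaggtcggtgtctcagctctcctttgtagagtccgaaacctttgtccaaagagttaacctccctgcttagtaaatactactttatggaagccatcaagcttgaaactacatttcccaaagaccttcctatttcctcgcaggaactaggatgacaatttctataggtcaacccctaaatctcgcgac
Cox7b2: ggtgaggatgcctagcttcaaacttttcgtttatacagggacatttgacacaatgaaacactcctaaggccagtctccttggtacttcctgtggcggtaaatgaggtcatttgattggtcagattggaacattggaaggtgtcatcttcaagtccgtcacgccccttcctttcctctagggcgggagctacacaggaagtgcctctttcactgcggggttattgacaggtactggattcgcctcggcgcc
Cox6a1: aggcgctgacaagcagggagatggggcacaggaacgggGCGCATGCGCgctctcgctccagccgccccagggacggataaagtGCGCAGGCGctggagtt

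In the Cox6a1 stretch, 3 matches began at positions −162, −161 and −117 relative to the start site, and the first 2 overlap on opposite strands. Cox7b and Cox7b2 had no match to any of the 3 motifs searched in these 250 bases, while the longer window used next, which adds 50 bases after the start, held 1 YY1 match in Cox7b. Their GC content was 43.6% and 50.4%, with 5 and 9 CpG. The motifs were that of NRF1, an activator of respiratory genes, CCGGAAGT for ETS factors such as GABPA and AANATGGC for YY1. Over windows of 300 bases (250 before and 50 after the start), the NRF1 motif was in 26.4% of the 72 member promoters, 13.1% of 11753 promoters of tested genes and 6.47% of all 27025 promoters. The YY1 motif was in 22.2%, 8.10% and 6.23% in the same order, and the ETS motif in 6.94%, 7.82% and 4.00%. A match is a string of letters and does not show that a factor binds.

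Position on chromosome X was shared by 3 members, Ndufa1, Ndufb11 and Cox7b, and all 3 were lower in germ cells under all 3 scalings (log2 differences of −1.91, −1.77 and −1.53 under TMM). They were among the members with the lowest values. Of 547 genes tested on this chromosome, 50.3% were lower, with a median log2 difference of −0.42, while 41.4% of 15072 genes on other nuclear chromosomes were lower, with a median of −0.03. The 83 tested nuclear members on other chromosomes had a median of −0.41. With 3 genes, this is a description only.

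Genes of the wider pathway, in lists fixed outside the naming rule, give the setting, beside 40.1% of all genes higher and 41.7% lower under TMM scaling. Under CPM scaling 7937 of all 15637 genes were higher and 5241 lower. Counts of the lists are under TMM scaling unless another is named. Among 9 genes of mitochondrial DNA maintenance and transcription, 8 were higher in germ cells by edgeR and none lower, with a median log2 difference of 0.77, and 6 were higher under all 3 scalings. Twnk, the replicative helicase, was at 63.1, 65.6 and 58.5 CPM in germ cells and 12.2, 14.5 and 11.6 CPM in feeder cells (log2 difference 1.88 ± 0.11 SE, edgeR adjusted p = 2.72e-14). Ssbp1, the single-strand DNA-binding protein, was higher by 0.98 and the elongation factor Tefm by 1.49. Polrmt, the mitochondrial RNA polymerase, did not pass (edgeR adjusted p = 0.998), and Tfam, which packages the genome, was higher by 0.24 only. Of 10 genes of mitochondrial RNA handling, 7 were higher and 1 lower, against 9 and 0 under CPM scaling and 5 and 0 under all 3 scalings. Complex II, which the rule left out, had 1 lower of 4 (Sdhd, −1.01), and the citric acid cycle had 1 higher and 10 lower of 13. Under CPM scaling complex II had 3 higher and 1 lower, and the citric acid cycle had 3 higher and 5 lower.

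Cyct, the testis form of cytochrome c, behaved like the testis forms of complex IV. Its level was 126, 115 and 114 CPM in germ cells and 3.56, 2.23 and 0.59 CPM in feeder cells (log2 difference 5.21 ± 0.16 SE, edgeR adjusted p = 1.76e-19), and the feeder values were 2.82%, 1.94% and 0.518% of the germ values. The common form Cycs did not pass under TMM scaling (−0.13) and was higher under CPM scaling (0.34). Of 8 nuclear regulators, 3 were higher and 4 lower under TMM and under all 3 scalings. Ppargc1a, a coactivator of mitochondrial genes, was at 2.75, 2.81 and 0 CPM in germ cells and 78.3, 78.2 and 24.8 CPM in feeder cells (log2 difference −5.17), while its relative Pprc1 was at 88.2, 90.5 and 89.2 CPM against 16.7, 16.5 and 11.2 CPM (2.09). Mitochondrial ribosomal proteins gave 30 higher and 27 lower of 78, beside 40.1% and 41.7% of all genes, and 51 and 14 under CPM scaling. Coenzyme Q synthesis gave 5 higher and 4 lower of 11 (6 and 2 under CPM), and 19 further assembly factors gave 6 and 7 (12 and 7 under CPM).

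The EV library was then set against the vehicle libraries within each class. In germ cells the mitochondrial-encoded share was 3.53% ± 0.20 (SD, n = 2) in vehicle and 3.30% in EV 1, a log2 ratio of −0.09, and the vehicle libraries themselves differed by −0.12. In feeder cells it was 1.98% ± 0.20 against 1.97% (log2 ratio −0.01). The nuclear share was 2.75% ± 0.14 against 2.56% in germ cells and 2.83% ± 0.13 against 2.58% in feeder cells, with log2 ratios of −0.11 and −0.14 beside vehicle differences of −0.11 and −0.10. EV 1 was thus within the vehicle range for the mitochondrial-encoded share of feeder cells and below both vehicle libraries for the other 3 shares, by less than the distance between them. With 1 EV library this has no replicate check.

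Within the mitochondrial-encoded mRNAs the makeup differed in EV 1, in both classes. mt-Co1, the catalytic subunit of complex IV, took 20.6% and 20.7% of these UMIs in the germ cells of vehicle 1 and vehicle 2 and 27.1% in EV 1. In feeder cells it took 20.3% and 20.6% against 27.9%. Its level was 7575, 7003 and 8963 CPM in germ cells, where the ratio of EV 1 to pooled vehicle was 1.23 (interval 1.19 to 1.28), and 4319, 3793 and 5503 CPM in feeder cells (1.36, 1.35 to 1.38). mt-Nd1, a complex I subunit, went down in step in both classes. It was at 2208, 2141 and 1400 CPM in germ cells (0.645, 0.586 to 0.707) and 1465, 1315 and 900.0 CPM in feeder cells (0.649, 0.631 to 0.668). mt-Nd4 stood at 0.712 and 0.758 times the pooled vehicle level and mt-Nd2 at 0.858 and 0.748, in germ and feeder cells. mt-Co2 was near 1 in both (1.01 and 1.02).

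Among the mitochondrial-encoded mRNAs, mt-Nd6 had the highest ratio in germ cells, with 97.2 and 100 CPM in vehicle and 194 CPM in EV 1 (63 UMIs, ratio 1.96, 1.5 to 2.52). In feeder cells it was at 106, 103 and 132 CPM (1.26, 1.17 to 1.37). mt-Atp6 was at 0.730 of the pooled vehicle level in germ cells and 0.916 in feeder cells. Both classes of a library were prepared together, so a property of the EV 1 library and an effect of the EVs cannot be told apart here.

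**Figure D4:**
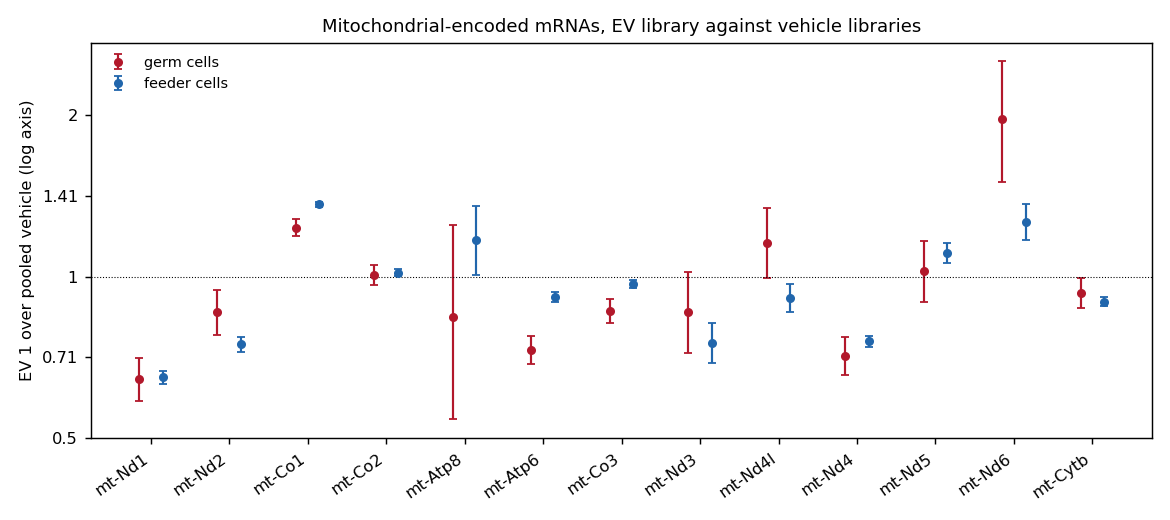
Ratio of EV 1 to the pooled vehicle libraries (y axis, log axis) for the 13 mitochondrial-encoded mRNAs in the order of their start on the genome (x axis), in germ cells (red) and feeder cells (blue), with exact 95% intervals for counting error as bars. mt-Nd1 lies near 0.65 in both classes, mt-Co1 at 1.23 and 1.36 and mt-Nd6 at 1.96 and 1.26.

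Few members of either genome passed a limit of size. Of 98 members with at least 200 UMIs in germ cells, 3 (3.06%) were up and 5 (5.1%) down by at least 1.5-fold and outside the vehicle range, against 13.9% and 12.2% of all 9674 genes with that many UMIs. In feeder cells 1 of 94 (1.06%) was up and 4 (4.26%) down, against 4.55% and 10.5% of 9705 genes. Members below both vehicle libraries, those past the limit included, numbered 62 of 98 (63.3%) in germ cells and 65 of 94 (69.1%) in feeder cells, beside 49.5% and 59.9% of all genes. The median log2 ratio over all 98 and 94 members was −0.15 in germ cells and −0.19 in feeder cells, and that of all genes was 0.01 and −0.13. The vehicle libraries are the same in these comparisons as for every gene, and no difference from the background was tested.

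Uqcrc2 was at 69.3, 68.1 and 33.8 CPM in germ cells (11 UMIs in EV 1, ratio 0.493, 0.245 to 0.884) and 102, 100 and 70.9 CPM in feeder cells, where it stayed under the 1.5-fold limit. A stricter class rule asked for at least 4 marker UMIs and none of the other class, which left 70 germ cells in EV 1. With it the germ log2 ratio of Uqcrc2 went from −0.96 to −0.43, and in thinned cells to −0.52, both short of the limit. Ndufa4 and Ndufs6 were down in germ cells, with ratios of 0.623 (0.520 to 0.741) and 0.635 (0.471 to 0.839), and were at 0.949 and 1.02 in feeder cells. Under the stricter class rule their germ log2 ratios were −0.48 and −0.41, and that of mt-Nd1 was −0.54, also short of the limit. In thinned cells the germ ratios of Ndufs6 (−0.48) and mt-Nd1 (−0.54) were short of it as well. The same held for Ndufs6 as a mean over cells (−0.53) and without vehicle 1 (−0.57). Ndufs8 stood just inside the limit in both classes, with log2 ratios to the vehicle mean of −0.58 and −0.54, and its germ ratio was past the limit under the stricter class rule (−1.20). In feeder cells Ndufaf3 (0.633), Atp5g1 (0.647) and mt-Nd1 were down past the limit, and Cox5a (0.685) was just inside it. The log2 ratio fell short of the limit for Ndufaf3 under the stricter class rule (−0.53) and in thinned cells (−0.56), for Atp5g1 in thinned cells (−0.57) and for mt-Nd1 without vehicle 1 (−0.55).

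Ndufv3 was up by like amounts in both classes, with 221, 197 and 329 CPM in germ cells (ratio 1.58, 1.30 to 1.92) and 720, 665 and 1070 CPM in feeder cells (1.55, 1.51 to 1.59). Without vehicle 2 its log2 ratios, 0.583 in germ and 0.572 in feeder cells, were just short of the 1.5-fold limit. In germ cells the 6 fibroblast markers reached 18.6% of their feeder level in EV 1 and 8.43% to 9.62% in the vehicle libraries. Most of that sum was Fn1, at 133, 119 and 228 CPM in germ cells. Col3a1 (10.3, 8.35 and 21.5 CPM) and Loxl1 (5.08, 4.27 and 15.4 CPM) were also higher in EV 1, while Pdgfra (6.88, 8.08 and 6.15 CPM) was not. Whether RNA of feeder cells raised the germ value of Ndufv3 was not tested. Cox6b2 rested on 14.7, 16.4 and 52.3 CPM (17 UMIs in EV 1, ratio 3.34, 1.92 to 5.44), while feeder cells held 2 or 3 UMIs of it per library. Its share of the Cox6b UMIs in germ cells was 2.36%, 2.77% and 10.6% (Wilson intervals 2.00 to 2.78, 2.39 to 3.19 and 6.74 to 16.4). Cox4i2 was below the UMI minimum but stood out in the same way, with a share of 0.335%, 0.373% and 2.16% of the Cox4i UMIs (9 UMIs in EV 1, ratio 5.34, 2.38 to 10.5). The other germ isoforms stayed near the vehicle level, with ratios of 0.864 for Cox7b2 (0.638 to 1.15), 1.21 for Cox8c (0.676 to 2.01) and 1.23 for Cox7a1 (0.585 to 2.28). Counts this low moved with the cells chosen, since under the stricter class rule the log2 ratio was 1.08 instead of 0.33 for Cox8c, −0.92 instead of 0.36 for Cox7a1 and 1.00 instead of 1.78 for Cox6b2.

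Further members at the upper end were Ndufaf3, Ndufa12 and Ndufa3 in germ cells, with ratios of 1.23 (0.397 to 2.92), 1.33 (0.986 to 1.75) and 1.32 (1.03 to 1.67), none of which reached the 1.5-fold limit. Under the stricter class rule the log2 ratio of Ndufa12 changed from 0.42 to −0.06. In feeder cells the ATP synthase subunits Atp5mpl, Atp5md and Atp5k stood at 1.22, 1.21 and 1.2, and Ndufaf5 at 1.18. Over complexes, the median log2 ratio of the nuclear members ran from −0.19 (complex V) to −0.07 (complex III) in germ cells and from −0.32 (complex V) to −0.06 (complex IV) in feeder cells.

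**Figure D5:**
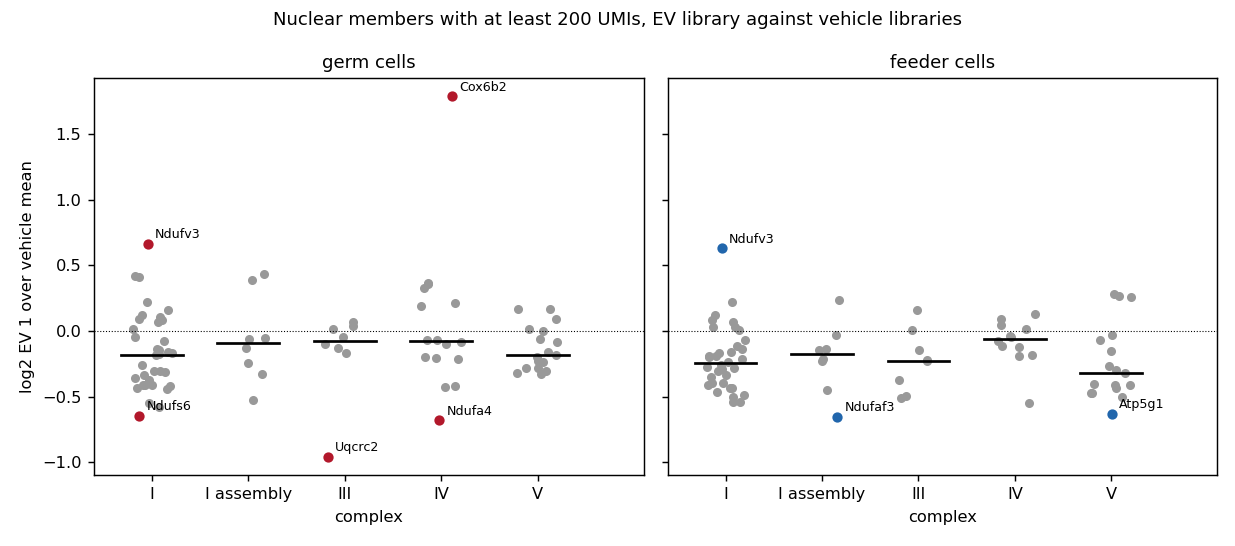
log2 of EV 1 over the mean of the vehicle libraries (y axis) of nuclear members with at least 200 UMIs in germ cells (left) and feeder cells (right), by complex (x axis), with the median of each complex as a bar and no error bars. A member of complex I is counted in the medians and not drawn. Named, coloured points are those at least 1.5-fold from the vehicle mean and outside the vehicle range, and most other points lie between −0.5 and 0.5.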

How the data were processed

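Libraries were prepared with the 10x Genomics protocol. The deposited values are raw UMI counts per gene and barcode, which the authors made with Cell Ranger 7.0.1 on mm10 with GENCODE vM23. The cells kept had more than 400 but fewer than 4000 genes, and a mitochondrial share below 10%. The highest Scrublet scores (scanpy 1.11.5) were removed as doublets at 0.8% per 1000 cells, while the study used another caller. In all, 8263, 8637 and 4779 cells of vehicle 1, vehicle 2 and EV 1 remained, and the deposited barcodes held 23686047, 27444797 and 10793232 UMIs. UMIs were summed per library and class and tested for germ against feeder with edgeR 4.0.16 (glmQLFTest, filterByExpr, TMM, library as a term, Benjamini-Hochberg adjusted p). DESeq2 1.42.0 and plain CPM scaling were alternatives. The fit was also run on simulated counts in which few genes changed, about as many up as down. Such counts do not test the choice of scaling. CPM are counts scaled to 1e6 UMIs. EV 1 was compared with the vehicle mean with 0.5 UMI added (1.5-fold limit, at least 200 UMIs in the class), with exact conditional or Wilson intervals, without a test. Gene positions are from GENCODE M21 (GRCm38). The text names all mitochondrial-encoded members, all isoform groups, the 3 highest and 3 lowest nuclear members per complex and the 5 highest and 5 lowest per class for EV over vehicle. The note on chromosome X and the genes named from the wider lists were chosen after their values were seen. Members, lists and tests were chosen with earlier results of these data known. The values of 1 member are not reported here, although it is included in the counts and medians.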

Additional observations from a re-analysis of the deposited data

Results flagged for a closer look

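With at least 200 UMIs in each class, 13 members lay above both vehicle libraries in the EV 1 cells of one class and below both in the other. They include 6 of the members described by their EV ratio. Log2 ratios to the vehicle mean were 0.37 in germ cells and −0.11 in feeder cells for Cox7a2l, which links complexes III and IV, and 0.21 and −0.19 for Cox8a, a common subunit of complex IV. In these 2 members alone, the counting intervals of both classes lay apart from 1. Ndufa12, an accessory subunit of complex I, had 0.42 and −0.41, and the assembly factor Ndufaf3 had 0.43 (5 UMIs in EV 1) and −0.65. The order was the reverse in the assembly factor Ndufaf5, with −0.052 and 0.24, and in the complex IV subunit Cox6a1, with −0.082 and 0.13. Under the stricter class rule the germ ratios of Cox6a1 and Ndufa12 changed sign, to 0.14 and −0.057. With 1 EV library, the difference between the classes was not tested. The share of all genes on opposite sides was not counted, so the 13 members are a description only.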

How the results depend on the processing

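The number of members higher in germ cells (23) ranged from 12 to 31 when 1 library was left out (12 without either vehicle library, 31 without EV 1). It was 47 under CPM scaling, an alternative chosen after seeing the data. The number over all genes moved in the same direction, from 6265 of 15637 to 7937 under CPM scaling. It was 4447 of 15715 without vehicle 1, 4355 of 15532 without vehicle 2 and 7067 of 16441 without EV 1. Members lower in germ cells numbered 35 to 57 over all alternatives. The log2 ratio of mitochondrial-encoded shares, germ over feeder, was 0.87 with a stricter class rule and 0.68 in cells thinned to 1000 UMIs. That of nuclear shares was −0.12 and 0.044 under these, and −0.0086 with library sizes without mitochondrial-encoded genes. Under CPM scaling 24 of 99 members changed sign, 8 of them called under TMM, among these Cox6b1 and Cox7a2 (0.070 and 0.071). CPM scaling leaves out the TMM factors, which raises all genes by a median of 0.37 on the log2 scale. Leaving out either vehicle library ended 16 calls of named members with their direction kept, namely Atp5g1, Atp5o, Cox6b1, Cox7a2, Cox8a, Ndufaf6, Ndufb8, Uqcr11, Uqcrc1, mt-Atp6, mt-Co1, mt-Co2, mt-Co3, mt-Nd2, mt-Nd5 and mt-Nd6. Of 69 EV over vehicle ratios of single members, 38 moved by at least the vehicle SD under the stricter class rule (7 changed sign) and 32 in thinned cells (5 changed sign). Those of the 4 shares moved by less than the vehicle SD, and that of mitochondrial-encoded UMIs in feeder cells was 0.10 without vehicle 1. Members past 1.5-fold numbered 7 to 12 in germ cells and 4 to 7 in feeder cells. No paired analysis was possible because expression in only 1 EV library was analysed here. The germ cells of EV 1 held few UMIs, which limits single members there.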
